A study of Mus musculus with 6 samples.

Results

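The genes described here are 35 mouse genes that move, store or buffer zinc, iron and copper, out of 24927 genes to which read counts could be assigned. They were grouped by function, and the list was made with earlier results of these data known. It holds 2 metallothioneins, 9 genes of iron uptake, storage and export, and 4 copper transporters. It also holds 8 zinc efflux transporters (ZnT, the Slc30 family) and 12 zinc influx transporters (ZIP, the Slc39 family). The RNA was that of isolated collecting duct cells of the kidney, taken from males of the inbred strain C57BL/6J, and no transgene or other agent is named for either group. The low-NaCl group ate food with 0.01 to 0.02% sodium and the high-NaCl group food with 2.4% sodium, each for 5 days, and each group has 3 libraries. The sources used here give neither the animals' age nor the isolation method, nor whether each library is its own animal, so the p-values rest on differences between libraries that may be technical. A low sodium intake raises aldosterone, the adrenal hormone that acts on this segment, and the comparison asks which transcripts differ between a high and a low aldosterone state.

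Metal ions are needed by many enzymes and harm cells in excess, so cells balance import, storage and export. Metallothioneins are small cysteine-rich proteins that bind zinc and copper, and their genes are switched on by the zinc-sensing factor MTF1 through short metal response elements (MREs) in their promoters. Iron genes are set mostly after transcription: when iron is scarce, iron regulatory proteins bind a hairpin in the mRNA, the iron responsive element (IRE), which blocks translation from a 5′ untranslated region and protects the mRNA from decay in a 3′ untranslated region. ZnT proteins carry zinc out of the cytosol, to the outside or into vesicles and the Golgi, and ZIP proteins carry it in.

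The libraries held 40101899 to 46861531 counted reads. Levels are given in CPM, reads of a gene relative to the library's total after scaling with TMM factors. A positive log2 fold change, printed ± SE, is a higher level on the low-NaCl diet. The mitochondrial share of counts was 20.5 to 21.8% in the low-NaCl libraries and 21.9 to 29.9% in the high-NaCl ones. Sequencer lane 1 held library 1 of each diet, lane 2 the other low-NaCl and lane 3 the other high-NaCl libraries, so lane and diet cannot be told apart outside lane 1. A log2 difference given within lane 1 was taken after adding 0.1 CPM to both values. This pulls genes under 1 CPM towards no difference, so theirs are not on the scale of the fitted log2 fold changes. Most defining markers of the collecting duct were present on both diets but not in equal amounts. Summed principal cell markers lay at 3120 to 4762 CPM on the low-NaCl and 8775 to 10940 CPM on the high-NaCl diet, and summed intercalated cell markers at 2849 to 5407 against 1867 to 2176 CPM. Aqp2 alone made up most of each principal cell sum, at 2136 to 3624 against 6148 to 8312 CPM. Aqp4 and the intercalated marker Kit were below the filter on low counts, and Gata3 had no read over 3 countable bases. Summed proximal tubule markers were at 1774 to 3517 against 994 to 2225 CPM, but Aqp1 alone made up 94.4 to 98.0% of each sum. The other 8 summed to 69.5 to 71.5 against 51.4 to 55.3 CPM, with Slc27a2 called higher on the low-NaCl diet (log2 fold change 1.03, adjusted p = 0.0228 by edgeR) and Kap at -0.95 (adjusted p = 0.256). Summed markers of the thick limb and distal convoluted tubule were at 84.9 to 91.1 against 43.5 to 61.9 CPM. The part of these shifts in any value below was not tested, and in such bulk RNA fewer cells of a type and less RNA per cell cannot be told apart.

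How much of each gene could be counted varied widely. Reads were counted per transcript form, and a read that fell in exons shared by several forms was not counted, so only the exonic bases that belong to a single identifier, called countable here, give reads. All exonic bases were countable in 9 of the 35 genes and at least 50% in 14, while 21 genes were under 50%. Reads sufficed for a test in 21 genes, 8 were below the filter on low counts, and 6 had no counted read. Of the 14 untested genes, 13 were under 20% countable, so their low counts say little about expression.

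**Figure D1:**
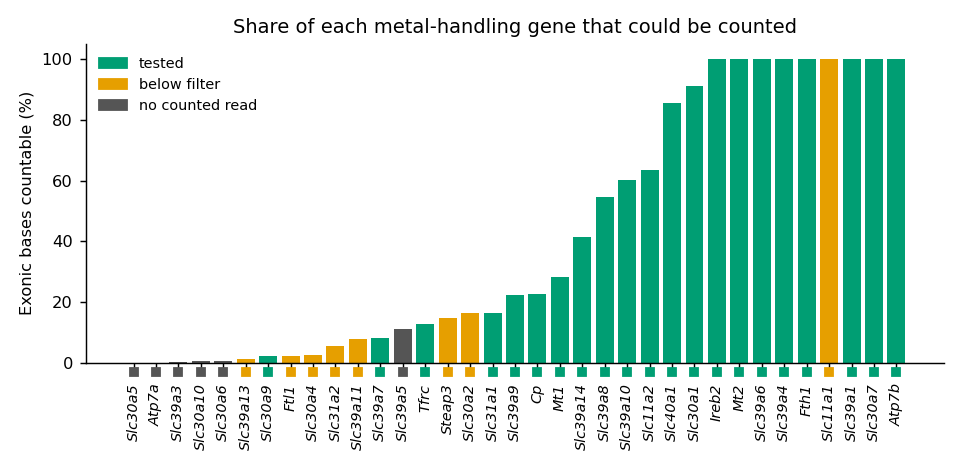
Share of exonic bases (%) of each of the 35 genes that belongs to a single identifier, as bars from 0, with colours for tested genes, genes below the filter and genes with no counted read. The 9 genes at 100% stand at the right, and 13 of the 14 untested genes lie under 20%.

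The untested genes come from every group but the metallothioneins. Ftl1, the light chain of the iron store ferritin, had 21 of its 991 exonic bases countable and 1 to 27 reads per library. Slc30a5, Slc30a6, Slc30a10, Slc39a3, Slc39a5 and the copper ATPase Atp7a had no read over 0, 15, 38, 4, 240 and 3 countable bases in that order. Steap3, an endosomal ferrireductase, had at most 4 reads in any library. Slc30a2, Slc30a4, Slc39a11, Slc39a13 and Slc31a2 had 7 to 29 reads over all 6 libraries. Slc11a1, the macrophage metal transporter, was the exception: all its bases were countable and it had 0, 3 and 1 reads on the low-NaCl and 6, 2 and 7 on the high-NaCl diet. The 3 fully countable leukocyte markers, C1qa, C1qb and Lyz2, were at 0.199 CPM or less in each library, and all 8 markers summed to 0.459 CPM or less. Of the markers at no read, Ptprc and Cd68 had 1346 and 27 countable bases, and Adgre1 and Itgam had 0, so the counting itself fixed them at no read.

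Between the diets, no gene of the set passed the test. With edgeR's quasi-likelihood test and Benjamini-Hochberg adjustment, 0 of 21 tested genes reached an adjusted p under 0.05, where 3.46% of all 10564 tested genes did, 1.72% higher and 1.74% lower on the low-NaCl diet. An unadjusted p under 0.05 was reached by 4 of the 21, Slc11a2, Cp, Slc30a7 and Slc39a4, which is 19.0% against 18.3% of all tested genes. All 4 measured higher on the low-NaCl diet, a direction in which 9.17% of all tested genes had such a p. The values of the diets did not overlap in 4 genes, Slc11a2, Slc30a7, Slc30a9 and Slc39a4, a share of 19.0% beside 23.9% of all tested genes. By other tools the number of called genes was 1 with DESeq2 (Cp, where 8.11% of all genes were called), 0 with limma-voom (2.92%) and 2 with limma-voom and sample weights (Slc11a2 and Slc30a7, where 11.0% were called). It was 2 with the replicate number as a block (Cp and Slc30a7, where 8.63% were called).

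The log2 fold changes were small as a group. Of the 21, 15 were above 0, beside 5262 of 10564 over all tested genes, and the median was 0.10 against -0.002. The median absolute log2 fold change was 0.16 in the set and 0.26 over all tested genes. Within lane 1 the median was 0.16 in the set and 0.0063 over all genes. These medians are descriptions, and 8 of the 21 genes rest on less than 50% of their exonic bases.

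**Figure D2:**
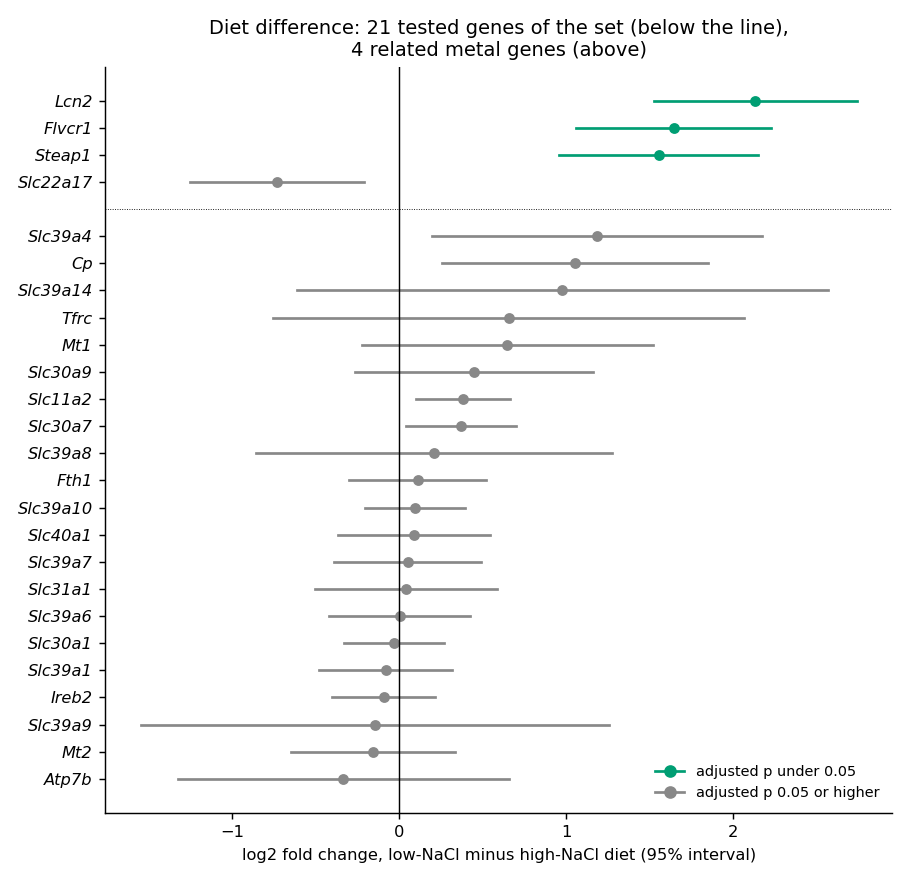
Log2 fold change, low-NaCl minus high-NaCl, with its 95% interval for the 21 tested genes of the set and, above the line, 4 related metal genes; green marks an adjusted p under 0.05 by edgeR. The intervals of Slc11a2, Slc30a7, Cp and Slc39a4 lie above 0 without an adjusted p under 0.05, and only 3 of the related genes are green.

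The iron genes are introduced by the hairpins that control them. The rule searched the untranslated regions of GENCODE M21 transcripts (GRCm38, mm10) for a C bulge, a stem of 5 bases, the loop CAGTGN and 5 bases pairing back, with G-T pairs allowed. It was met by 4 genes of the set, Fth1, Ftl1, Slc40a1 and Tfrc, and by 175 of 22527 protein-coding genes searched (0.777%). With 1 unpaired base allowed, 5 of the set, now with Slc11a2, and 2.21% of genes held a match. A match is a description of letters and not a measured binding site. The sites are shown because they mark which iron mRNAs are controlled at the start and which at the end, and capitals mark the loop. The 5′ sites lie at chr19:9982732-9982761 (plus strand) for Fth1, chr7:45459778-45459807 (minus) for Ftl1 and chr1:45925464-45925493 (minus) for Slc40a1.
Fth1 5′ site: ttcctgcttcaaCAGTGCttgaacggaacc
Ftl1 5′ site: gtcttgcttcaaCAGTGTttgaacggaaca
Slc40a1 5′ site: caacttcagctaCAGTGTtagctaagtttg
The 3′ sites lie at chr15:100395152-100395181 (minus) for Slc11a2 and, for Tfrc (plus), at chr16:32631219-32631248, chr16:32631598-32631627, chr16:32631663-32631692 and chr16:32631710-32631739 in the order shown.
Slc11a2 3′ site: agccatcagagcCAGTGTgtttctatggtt
Tfrc 3′ site a: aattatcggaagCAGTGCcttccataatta
Tfrc 3′ site b: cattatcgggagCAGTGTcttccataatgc
Tfrc 3′ site c: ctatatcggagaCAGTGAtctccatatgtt
Tfrc 3′ site d: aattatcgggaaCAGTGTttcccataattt

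Iron enters most cells as transferrin bound to the receptor Tfrc, and the ion leaves the endosome through Slc11a2 (DMT1). Tfrc (chr16:32608920-32632794) measured 0.671, 0.637 and 0.637 CPM on the low-NaCl and 0.055, 0.402 and 0.772 CPM on the high-NaCl diet. The high-NaCl libraries spread widely and enclosed the low-NaCl values. Only 700 of 5546 exonic bases were countable, none of them in the stretch with the 4 hairpins, and the log2 fold change of 0.66 ± 0.63 did not pass (adjusted p = 0.636 by edgeR). The value hung on single libraries: it was 2.31 within lane 1 with 0.1 CPM added, and 3.54 in a fit with a lane term. It was 0.16 with high-NaCl library 1 left out and 1.42 with library 3 of that diet left out, and no setting passed.

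Slc11a2 (chr15:100387898-100425072) measured 43.7, 44.8 and 49.0 CPM on the low-NaCl and 32.4, 37.3 and 35.7 CPM on the high-NaCl diet. All 3 low-NaCl libraries lay above all 3 high-NaCl libraries. The level was 1.31-fold that of the high-NaCl diet (log2 fold change 0.38 ± 0.13, 95% interval 0.10 to 0.67), and the difference did not pass the adjustment (adjusted p = 0.138 by edgeR). Within lane 1 the log2 difference was 0.43. Of all settings tried, only sample weights called it (adjusted p = 0.0415 by limma-voom), and with a lane term the adjusted p was 0.483 by edgeR.

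The counted reads of Slc11a2 came from its alternative last exons, of which 1 carries the hairpin printed above. The form with the hairpin was counted over 2612 bases (chr15:100392658-100395269) and the form without it over 1036 bases (chr15:100388126-100389161). The gene is on the minus strand, so the hairpin exon comes first and lies in an intron of the other form. Reads of unspliced RNA of the other form would count as the hairpin form, and their part was not tested. The hairpin form measured 17.9, 19.3 and 19.95 CPM on the low-NaCl and 12.9, 13.4 and 12.8 CPM on the high-NaCl diet. Within each diet the spread was small beside the gap between the diets. In a fit of each identifier alone its log2 fold change was 0.54 ± 0.14 (adjusted p = 0.0752 by edgeR, where 2.82% of identifiers were called). The other form measured 25.9, 25.5 and 29.1 against 19.5, 23.9 and 22.9 CPM, with a log2 fold change of 0.27 ± 0.14 (adjusted p = 0.372 by edgeR). Both forms were thus higher in every low-NaCl library than in any high-NaCl library, and neither passed the adjustment. The hairpin form gave 40.9, 43.1 and 40.7% of the reads of both forms on the low-NaCl and 39.9, 35.9 and 35.8% on the high-NaCl diet. The means were 41.6% ± 1.35 and 37.2% ± 2.34 (SD, n = 3), and the exact two-sided permutation test gave p = 0.1, the smallest that 3 against 3 libraries allow. This share depends on the unequal countable lengths and is no share of molecules, it differed little in lane 1 (40.9 against 39.9%), and it was examined after the values of the forms were seen.

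**Figure D3:**
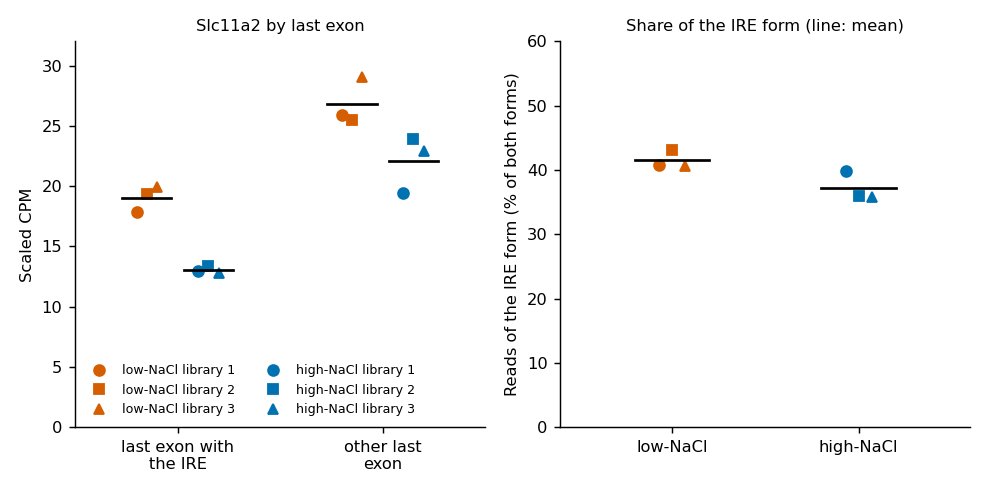
Left, level (scaled CPM) of the Slc11a2 forms with the IRE-containing and the other last exon in each library; right, reads of the IRE form as a share (%) of both; lines are means of 3 libraries. The low-NaCl points lie above the high-NaCl points in each comparison, and the gap in CPM is wider for the IRE form.

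Ferritin stores iron, and ferroportin, encoded by Slc40a1, is the known iron exporter of animal cells. Fth1, the ferritin heavy chain (chr19:9980598-9985098), measured 3861, 3438 and 3403 CPM on the low-NaCl and 3718, 2685 and 3504 CPM on the high-NaCl diet. The ranges overlapped and the log2 fold change was 0.11 ± 0.18 (adjusted p = 0.798 by edgeR, 95% interval -0.30 to 0.52). Ferritin genes have processed pseudogenes, and a loss of reads that map to several places was not tested. Slc40a1 (chr1:45908068-45926523) measured 48.3, 79.2 and 69.1 against 52.2, 76.0 and 56.7 CPM. Its low-NaCl libraries bracketed the high-NaCl ones, with a log2 fold change of 0.09 ± 0.20 (adjusted p = 0.859 by edgeR) and of -0.11 within lane 1.

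Ceruloplasmin, the copper-carrying ferroxidase that helps load exported iron onto transferrin, had the second largest log2 fold change of the set. Cp (chr3:19957054-20009145) measured 4.37, 9.45 and 13.4 CPM on the low-NaCl and 3.41, 4.55 and 5.13 CPM on the high-NaCl diet. Low-NaCl libraries 2 and 3 stood above all high-NaCl libraries, and low-NaCl library 1 lay among them. The level was 2.08-fold that of the high-NaCl diet (log2 fold change 1.05 ± 0.36, adjusted p = 0.149 by edgeR), with 22.6% of exonic bases countable. The value depended on the libraries: it was 0.35 within lane 1, 1.38 without low-NaCl library 1 (adjusted p = 0.0149 by edgeR) and 0.66 without low-NaCl library 3 (adjusted p = 0.463). DESeq2 called it with all libraries (adjusted p = 0.0391). Its most counted form measured 2.44, 5.99 and 9.03 against 2.26, 2.77 and 2.93 CPM, and the next 1.39, 2.91 and 3.37 against 1.13, 1.47 and 1.62 CPM, so both showed the pattern of the sum. Ireb2, which encodes an iron regulatory protein that binds these hairpins, measured 62.6, 54.5 and 62.5 against 63.8, 55.7 and 71.9 CPM. Its ranges overlapped and its log2 fold change was -0.09 ± 0.14 (adjusted p = 0.780 by edgeR).

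The metallothioneins lie side by side on chromosome 8, and their upstream sequences are shown because MRE letters there are the known handle for zinc. The 7 letters searched were TGCACNC and TGCGCNC on both strands, in the RefSeq promoter table (GRCm38.p6, 250 bases before to 50 after the start). Some genes have several promoters there, and each gene was counted by the promoter with the most matches. Of 30 genes of the set with a promoter, 16 (53.3%) held at least 1 match, beside 28.2% of all 27025 genes, and 4 (13.3%) held at least 3, beside 2.27%. Per promoter the shares were 25.7% and 1.97% of 32851. The 4 were Mt2 with 4 matches and Mt1, Slc30a4 and Slc30a10 with 3 each. The 250 bases upstream of the RefSeq start of Mt2 (chr8:94172368-94172617, plus strand) and Mt1 (chr8:94178839-94179088, plus strand) hold 3 and 1 of them, in capitals. The rest lie past the RefSeq start. For Mt2 the remaining match still lies before the GENCODE gene start, chr8:94172664, so which matches are upstream depends on the start used.
Mt2 upstream: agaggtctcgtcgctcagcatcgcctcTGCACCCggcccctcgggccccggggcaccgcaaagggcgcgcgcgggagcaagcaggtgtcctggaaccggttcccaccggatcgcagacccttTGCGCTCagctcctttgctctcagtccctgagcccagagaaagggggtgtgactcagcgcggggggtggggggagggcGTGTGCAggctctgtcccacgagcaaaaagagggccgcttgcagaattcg
Mt1 upstream: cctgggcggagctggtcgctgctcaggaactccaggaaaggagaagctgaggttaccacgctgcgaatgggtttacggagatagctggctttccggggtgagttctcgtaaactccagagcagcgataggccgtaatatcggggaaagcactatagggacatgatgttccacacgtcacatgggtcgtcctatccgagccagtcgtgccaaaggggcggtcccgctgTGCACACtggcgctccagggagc

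Mt2 (chr8:94172664-94173568) measured 554, 325 and 359 CPM on the low-NaCl and 546, 417 and 417 CPM on the high-NaCl diet. Library 1 was the highest of each diet, and the ranges overlapped. The log2 fold change was -0.16 ± 0.22 (adjusted p = 0.760 by edgeR) with a 95% interval of -0.65 to 0.33, and within lane 1 the difference was 0.021.

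Mt1 (chr8:94179082-94180327) could be counted only over 213 of 755 bases (chr8:94179889-94180101), a stretch that is exon in the longer of its 2 forms and intron in the shorter. It measured 0.795, 1.21 and 0.731 CPM on the low-NaCl and 0.385, 0.803 and 0.532 CPM on the high-NaCl diet. These values, 192 reads in all, are of that stretch and not of the spliced Mt1 message. The log2 fold change was 0.65 ± 0.39 with overlapping ranges (adjusted p = 0.424 by edgeR).

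Of the neighbouring metallothionein genes outside the set, Mt4, known from stratified epithelium, had no counted read over 391 countable bases. Mt3, known from brain and named here after its values were seen, measured 18.6, 6.24 and 9.90 CPM on the low-NaCl and 28.3, 14.5 and 26.1 CPM on the high-NaCl diet. Low-NaCl library 1 overlapped the high-NaCl range and the other low-NaCl libraries lay below it. The log2 fold change was -0.99 ± 0.37 (adjusted p = 0.196 by edgeR), -0.60 within lane 1, and -1.52 without low-NaCl library 1, where it passed (adjusted p = 0.0277). It also passed with sample weights (adjusted p = 0.0185 by limma-voom).

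**Figure D4:**
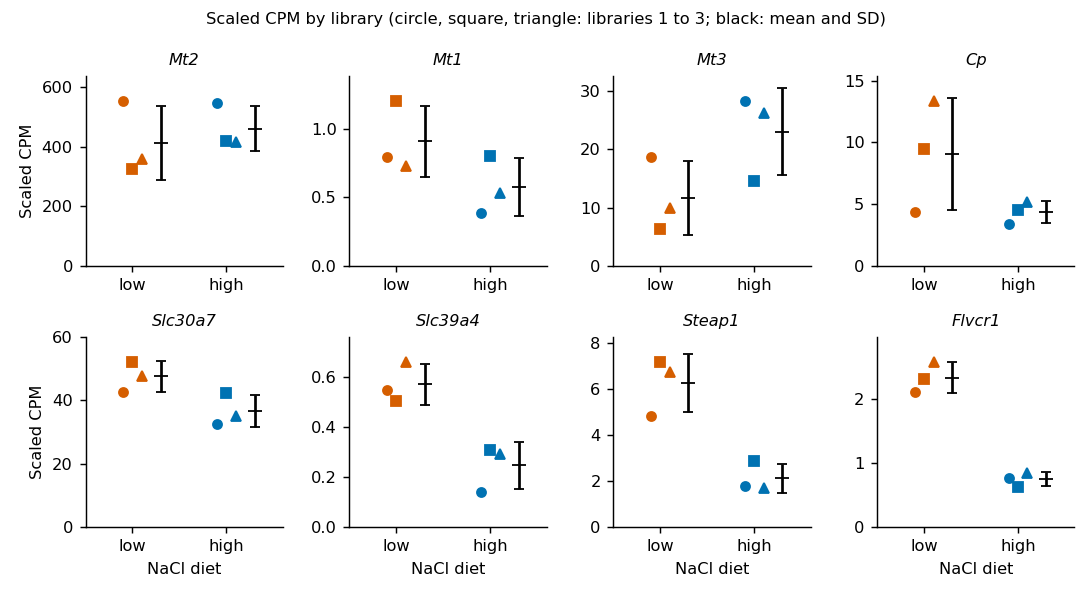
Scaled CPM of 8 genes in each library by diet, with the mean and SD (n = 3) in black; circles, squares and triangles are libraries 1, 2 and 3. Slc30a7, Slc39a4, Steap1 and Flvcr1 show no overlap between the diets, while Mt2, Mt1, Mt3 and Cp do.

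Among the zinc efflux transporters, 3 of 8 could be tested. Slc30a1 (ZnT1), the zinc exporter of the plasma membrane and a known MTF1 target with 2 MRE matches in its promoter, measured 34.3, 35.3 and 35.4 CPM on the low-NaCl and 35.6, 40.0 and 31.6 CPM on the high-NaCl diet. The low-NaCl values lay inside the high-NaCl range, and the 95% interval of the log2 fold change was -0.33 to 0.27 (-0.03 ± 0.13, adjusted p = 0.933 by edgeR). Slc30a7 (ZnT7), which loads zinc into the Golgi and has no MRE match (chr3:115938973-116007406), measured 42.6, 52.2 and 47.8 against 32.6, 42.4 and 35.1 CPM.

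The lowest low-NaCl value of Slc30a7 lay just above the highest high-NaCl value. The level was 1.29-fold that of the high-NaCl diet, and the log2 fold change of 0.37 ± 0.15 did not pass (adjusted p = 0.215 by edgeR, 95% interval 0.04 to 0.70). It was 0.38 within lane 1, and it passed with sample weights (adjusted p = 0.0402 by limma-voom). In the 4 libraries with at most 25% mitochondrial counts, only 1 of them high-NaCl, it was 0.15. Slc30a9, which exports zinc from mitochondria, measured 0.820, 0.729 and 0.967 against 0.633, 0.574 and 0.639 CPM. Its diets did not overlap either, but these 183 reads come from 60 of its 72 countable bases (log2 fold change 0.45 ± 0.32, adjusted p = 0.508 by edgeR).

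Among the zinc influx transporters, 8 of 12 could be tested, and Slc39a4 had the largest log2 fold change of the whole set. Slc39a4 (ZIP4, chr15:76612383-76617384) is the zinc importer of the intestine, and its loss causes acrodermatitis enteropathica. It had 22, 22 and 28 reads on the low-NaCl and 5, 16 and 11 on the high-NaCl diet, or 0.547, 0.501 and 0.660 against 0.138, 0.306 and 0.293 CPM. The diets did not overlap, at a level close to the limit of counting. The log2 fold change was 1.19 ± 0.44 (95% interval 0.20 to 2.17, adjusted p = 0.189 by edgeR) and 1.44 within lane 1. No setting called it, with adjusted p from 0.0921 to 0.560. The summed markers of the thick limb and distal convoluted tubule, given above, were also higher in every low-NaCl library. So was the proximal tubule sum without Aqp1, in which Slc27a2 measured 50.1, 41.6 and 34.2 against 16.3, 24.1 and 21.1 CPM. The other tested markers of that sum overlapped between the diets. Slc34a1, Slc5a2, Lrp2 and Cubn had log2 fold changes of 1.04, 0.67, 0.28 and 0.10, and Kap and Slc22a6 of -0.95 and -0.49. Aqp1, left out of that sum, was at 0.74 with overlapping diets, and Slc22a8 had no counted read. The part of these markers in so low a signal was not tested.

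The other ZIP genes showed no separation of the diets. Slc39a1 (ZIP1), a plasma membrane importer, measured 187, 173 and 172 CPM on the low-NaCl and 237, 146 and 181 CPM on the high-NaCl diet. The high-NaCl libraries enclosed the low-NaCl ones (log2 fold change -0.08 ± 0.18, adjusted p = 0.851 by edgeR), and within lane 1 the difference was -0.34. Slc39a10 (ZIP10) was the steadiest, at 22.2, 23.4 and 22.7 against 19.9, 23.2 and 20.8 CPM, with a log2 fold change of 0.10 ± 0.13 (adjusted p = 0.756 by edgeR). Slc39a6 (ZIP6), its close relative, measured 15.4, 21.2 and 16.3 against 15.7, 21.4 and 15.7 CPM. Library 2 was the highest of each diet, and the log2 fold change was 0.0025 ± 0.19 (adjusted p = 0.995 by edgeR). Slc39a7 (ZIP7), which releases zinc from the endoplasmic reticulum, measured 7.93, 7.67 and 8.94 against 9.02, 6.08 and 8.59 CPM over 285 countable bases (log2 fold change 0.05 ± 0.20, adjusted p = 0.916 by edgeR).

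Slc39a8, Slc39a9 and Slc39a14 were all below 1 CPM in every library, with 54.6, 22.4 and 41.5% of their exonic bases countable. Slc39a8 and Slc39a14 encode ZIP8 and ZIP14, which also carry manganese and iron. Slc39a14 measured 0.199, 0.615 and 0.660 CPM on the low-NaCl and 0.0275, 0.402 and 0.293 CPM on the high-NaCl diet. Library 1 was the lowest of each diet, and the log2 fold change of 0.98 ± 0.71 did not pass (adjusted p = 0.516 by edgeR) and was 0.49 without high-NaCl library 1. Slc39a8 measured 0.497, 0.637 and 0.872 against 0.715, 0.249 and 0.798 CPM, and Slc39a9 0.596, 0.455 and 0.212 against 0.110, 0.727 and 0.532 CPM. Both had overlapping diets and wide intervals, with log2 fold changes of 0.21 ± 0.48 and -0.14 ± 0.63 (adjusted p = 0.854 and 0.928 by edgeR).

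Copper enters through Slc31a1 (CTR1) and is exported or loaded onto enzymes by the ATPases Atp7a and Atp7b. Slc31a1 measured 2.31, 2.69 and 3.07 CPM on the low-NaCl and 2.23, 3.29 and 2.29 CPM on the high-NaCl diet, with 16.4% of exonic bases countable. The ranges overlapped and the log2 fold change was 0.04 ± 0.24 (adjusted p = 0.947 by edgeR). Atp7b, the gene of Wilson disease, measured 0.596, 0.273 and 0.401 against 0.385, 0.497 and 0.718 CPM. Its ranges overlapped too, the log2 fold change was -0.33 ± 0.44 (adjusted p = 0.743 by edgeR), and within lane 1 it had the other sign, at 0.52.

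Levels of different genes can be set side by side only per length, here as mean CPM per countable kilobase over all 6 libraries. Of the 14 genes at least 50% countable, 10 have all their countable bases in 1 form and are ranked first. Fth1 stood first at 2860 and Mt2 next at 785, followed by Slc39a1 at 77.9, and the ranges of these 3 did not overlap those of their neighbours. Ireb2 at 10.7 and Slc30a1 at 7.43 CPM per kilobase came next, apart from each other, and then Slc30a7 at 4.67 and Slc39a6 at 4.54, which overlapped. Slc39a4 at 0.183, Atp7b at 0.102 and Slc11a1 at 0.0348 CPM per kilobase stood far below, each overlapping the next. The other 4 genes are given by form, since a mean over forms is lowered by forms with few reads. The main form of Slc40a1 was at 24.95 CPM per kilobase and its other form at 0.109. The hairpin form of Slc11a2 was at 6.14 CPM per kilobase and the form with the other last exon at 23.6. The main form of Slc39a10 was at 7.88 and that of Slc39a8 at 0.373 CPM per kilobase, and their other forms had few or no reads.

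**Figure D5:**
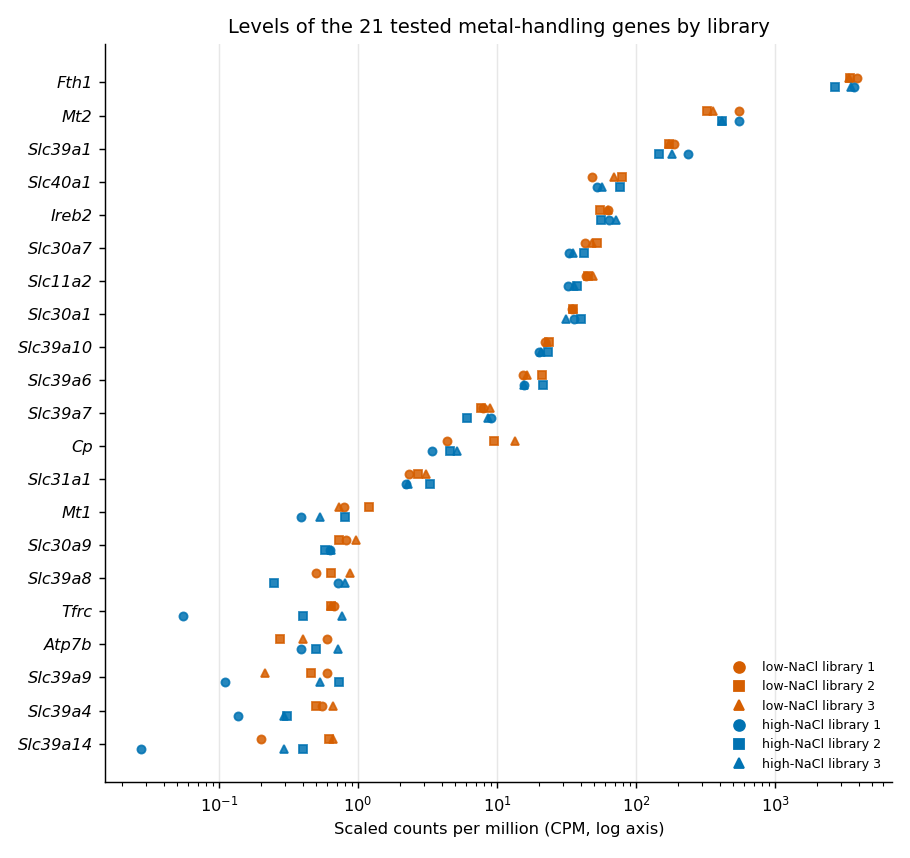
Level of the 21 tested genes in each of the 6 libraries (scaled CPM, log axis, not divided by length), sorted by mean; orange marks low-NaCl and blue high-NaCl, and the symbol marks the library number. Most genes show overlapping colours, and the spread widens below 1 CPM, where Tfrc, Slc39a9 and Slc39a14 of high-NaCl library 1 are the lowest points.

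Related metal genes outside the set gave the calls, and their list too was chosen with earlier results of these data known. Of 58 further genes of iron and haem, zinc and copper handling, 36 were tested, and 3 rose on the low-NaCl diet and 0 fell, beside 1.72% and 1.74% of all tested genes, with a median log2 fold change of -0.0001. All 3 belong to the 38 iron and haem genes, of which 25 were tested, while none of the 2 tested zinc and 9 tested copper genes passed. At an unadjusted p under 0.05 were 4 higher and 2 lower genes of the 36, 16.7% beside 18.3% of all tested genes.

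Flvcr1, which encodes a transporter known for haem and choline, measured 2.11, 2.32 and 2.59 CPM on the low-NaCl and 0.770, 0.631 and 0.851 CPM on the high-NaCl diet. No low-NaCl value came near the high-NaCl range, over 466 countable bases (10.7% of exonic bases). It rose 3.13-fold (log2 fold change 1.65 ± 0.26, adjusted p = 0.0134 by edgeR; 1.35 within lane 1). The call was lost without low-NaCl library 2 (adjusted p = 0.0625 by edgeR) or 3 (adjusted p = 0.0516). It was also lost in the 4 libraries with at most 25% mitochondrial counts, only 1 of them high-NaCl.

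Steap1, of the metalloreductase family to which Steap3 belongs (chr5:5736317-5749326), measured 4.85, 7.19 and 6.74 against 1.79, 2.85 and 1.70 CPM. The diets did not overlap and all its exonic bases were countable. It rose 2.94-fold (log2 fold change 1.56 ± 0.27, adjusted p = 0.0184 by edgeR; 1.39 within lane 1). The call was lost when low-NaCl library 2 (adjusted p = 0.0771 by edgeR) or 3 (0.0528) was left out. Leaving out high-NaCl library 1 (0.0608) or 3 (0.0801), or total-count scaling (0.0545), lost it too. So did the limit to the 4 libraries with at most 25% mitochondrial counts, only 1 of them high-NaCl.

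The third gene was Lcn2, encoding lipocalin 2, which binds iron-carrying siderophores, at 74.1, 171 and 156 against 30.3, 31.7 and 29.3 CPM (log2 fold change 2.13 ± 0.27, adjusted p = 0.00658 by edgeR; 1.29 within lane 1). All low-NaCl libraries stood above the high-NaCl ones, and low-NaCl library 1 was the lowest of them. Its call was lost in the 4 libraries with at most 25% mitochondrial counts, only 1 of them high-NaCl. In a fit with a lane term, which compares the diets within lane 1, none of the 3 passed (adjusted p = 0.328 for Flvcr1, 0.297 for Steap1 and 0.154 for Lcn2). Slc22a17, described as a receptor for lipocalin 2, measured 2.14, 2.19 and 1.79 against 3.55, 3.94 and 2.66 CPM. Its diets did not overlap, and the log2 fold change of -0.73 ± 0.23 did not pass (adjusted p = 0.130 by edgeR).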

How the data were processed

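Reads of 6 RNA libraries were compared, 3 per diet. The authors deposited raw counts per UCSC transcript identifier (build mm10), made with featureCounts 1.5.0-p3 without a strand or overlap option, per the file headers. By that program's defaults a read over several identifiers is dropped, and reads count whatever their strand. FastQC, Subread and edgeR are named in the submitters' processing notes. The aligner is not given in the sources used here.

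Here, 59121 identifiers were matched to GENCODE M21 genes by identical introns (41510) or at least 50% of exonic bases (11061) and summed. The 6550 unmatched (5.57% of counts) entered library sizes only. Genes were tested with edgeR 4.0.16 (R 4.3.3; filterByExpr, TMM, glmQLFit with robust estimation, glmQLFTest), adjusted by Benjamini-Hochberg over 10564 genes, threshold 0.05. SEs are absolute log2 fold changes over the root of F. The biological coefficient of variation was 21.6%, and on simulated counts of 10373 genes for this comparison 60% of 2-fold and 100% of 4-fold changes were recovered. Changes were planted only in genes with a mean above 1 CPM, and all genes were given that same variation. No lane or mitochondrial difference was simulated. The rates thus do not hold for genes under 1 CPM or with a wider spread between libraries. No library duplicated another of its diet (chi-square over its degrees of freedom 38.1 to 244). Depth of 40101899 to 46861531 counts sets the precision of each gene together with its countable length.

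Named are all 35 genes and, of the wider metal list, the called genes or the 4 with the smallest p. Outside this rule, Mt3 and Mt4 were named as neighbours of Mt1 and Mt2. Marker genes were named where a sum turned on them, their reads were few or the genes of a sum differed. The members, lists and tests were chosen with earlier results of these data known. Alternatives were other scalings and filters, DESeq2 1.42.0, limma-voom (limma 3.58.1), also with sample weights, edgeR with robust estimation off, a block, lane, left-out libraries, only libraries with at most 25% mitochondrial counts, other identifier rules and, added after seeing the data, library sizes without mitochondrial counts. Permutation tests used SciPy 1.17.1, and figures matplotlib 3.10.9.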

Additional observations from a re-analysis of the deposited data

How the results depend on the processing

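The count of called genes in the set was 0 in most settings, 1 with DESeq2, 2 with limma-voom and sample weights, and 0 to 1 with any 1 library left out. Over all genes it was 366, against 136 with total-count scaling (81 higher and 55 lower, beside 182 and 184), 857 with DESeq2, 1160 with sample weights, 3 with a lane term, 123 with at most 25% mitochondrial counts (31 higher and 92 lower) and 75 to 512 with 1 library left out. The related metal genes had 0 calls with a lane term, and 1 to 4 with 1 library left out. The set's median log2 fold change was 0.097, 0.18 with total-count scaling, 0.0445 with the CPM filter (8 of 13 genes above 0) and 0.098 to 0.25 with 1 library left out. Deviations of same-numbered libraries of the diets correlated at 0.19, 0.27 and -0.073. Libraries 1 and 2 correlated best with their own number and library 3 did not, so these values do not settle whether the numbers pair the libraries. With the replicate block 912 genes were called, 2 of them in the set (Cp and Slc30a7).

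Small log2 fold changes that did not pass also changed sign, and the cause was not tested. With a lane term, which leaves the difference to lane 1, they were 0.021 for Mt2, -0.11 for Slc40a1, -0.021 for Slc39a6, -0.19 for Slc39a7, -0.52 for Slc39a8, 2.41 for Slc39a9 and 0.63 for Atp7b. With total-count scaling they were 0.006 for Ireb2, 0.051 for Slc30a1 and 0.035 for Slc39a1. The limit to at most 25% mitochondrial counts left only 1 high-NaCl library. There the log2 fold changes were -0.23 for Slc40a1, 0.087 for Ireb2, 0.27 for Slc39a1, -0.29 for Slc39a6, -0.045 for Slc39a10 and -0.31 for Slc31a1. Slc30a1 was at 0.083 with sample weights, and Slc39a9 at 0.024 with limma-voom. Slc39a6 was at -0.005 with median-ratio and -0.019 with upper-quartile scaling, -0.0008 without a filter, -0.0074 with the CPM filter, -0.0051 with DESeq2, -0.0037 with limma-voom, -0.0016 with identical introns only, -0.0023 with each identifier alone and -0.0008 with library sizes without mitochondrial counts. With 1 library left out the ranges were -0.019 to 0.20 for Fth1, -0.069 to 0.27 for Slc40a1, -0.18 to 0.0043 for Ireb2, -0.11 to 0.0601 for Slc30a1, -0.24 to 0.12 for Slc39a1 and -0.15 to 0.17 for Slc39a6. They were -0.11 to 0.16 for Slc39a7, -0.18 to 0.51 for Slc39a8, -0.59 to 0.38 for Slc39a9 and -0.064 to 0.25 for Slc31a1. Depth limits the genes under 1 CPM and those with few countable bases.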
